A study of Mus musculus with 4 samples.

Results

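The peaks described here are the intronic LMO2 peaks that lie outside annotated repeats and away from transcription start sites (TSSs). They were taken from the deposited list of LMO2 ChIP-seq peaks as those annotated to an intron, more than 2500 bp from the nearest TSS and with no repeat name in the detailed annotation. Of 1585 peaks in the list, 605 were intronic. A repeat name removed 84 of these and the distance to a TSS another 35, which left 486 members, 30.7% of the list. Each peak is 207 bp long and carries the authors' peak score, a normalized measure of ChIP signal, and a focus ratio between 0 and 1, which is higher the more tightly the reads surround one point.

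The study asked how progenitors keep the potential to become T-lineage cells, and its ChIP-seq part mapped where LMO2 binds in pro-B(+) cells. These are a line of Ebf1-deficient pro-B cells that has kept this potential. The line came from fetal liver of Ebf1-deficient C57BL6/J mice and was grown on OP9 cells, a mouse stromal cell line, with the cytokines SCF, IL-7 and Flt3L. All samples share the Ebf1 deficiency and this culture, and the series holds no other genotype or treatment. LMO2 was precipitated in 2 ChIP samples with a mixture of 3 antibodies from cells fixed with DSG and formaldehyde, and 2 input samples served as the background for peak calling. The list gives 1 value per peak for both ChIP samples together, so it holds no spread between replicates and no read depth, and every interval below covers the number of peaks counted only. It holds no expression either, so the labelled cell type could not be checked against marker genes.

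LMO2 is a LIM-only protein that does not touch DNA itself. It bridges LDB1 to DNA-binding partners: heterodimers of the bHLH factors TAL1 or LYL1 with E proteins such as E2A, which read E-boxes (CANNTG), and GATA factors. RUNX and ETS factors often bind in the same regions of blood progenitor genomes. Introns, first introns in particular, hold many of the enhancers of blood cell genes, which may act on their host gene or on another gene nearby.

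Sequences come first, since the motif counts below rest on them. All are windows of 200 bp centred on a peak, read 5′ to 3′ on the plus strand of the GRCm38.p6 reference. Capitals mark the searched words on either strand: RUNX (TGTGGT, or its complement ACCACA), ETS (CTTCCT, or its complement AGGAAG), bHLH (CAGCTG, the same on both strands) and the words of GATA factors, which are AGATAA or TGATAA, with complements TTATCT and TTATCA. RBPJ words (TGGGAA, or its complement TTCCCA), which were also searched and are counted below, are not marked. Words of different motifs can share end letters. The 3 highest peak scores among the members belong to introns of Atrnl1, Arid3a and Prex1, and they are shown as the strongest signals of the class.
Atrnl1, chr19:57994427-57994626: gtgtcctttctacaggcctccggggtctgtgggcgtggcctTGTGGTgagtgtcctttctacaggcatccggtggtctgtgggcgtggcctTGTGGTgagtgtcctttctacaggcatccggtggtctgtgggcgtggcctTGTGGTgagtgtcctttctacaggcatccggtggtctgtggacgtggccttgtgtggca
Arid3a, chr10:79940810-79941009: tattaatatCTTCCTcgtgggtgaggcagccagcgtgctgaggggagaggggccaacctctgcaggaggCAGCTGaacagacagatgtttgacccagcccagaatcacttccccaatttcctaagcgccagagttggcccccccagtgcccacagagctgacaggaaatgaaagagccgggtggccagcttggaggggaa
Prex1, chr2:166630482-166630681: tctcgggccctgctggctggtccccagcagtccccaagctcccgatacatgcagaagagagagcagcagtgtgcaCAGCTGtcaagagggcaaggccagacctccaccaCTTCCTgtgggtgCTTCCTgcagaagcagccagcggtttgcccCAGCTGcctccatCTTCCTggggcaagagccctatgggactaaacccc
The window in Atrnl1 held 3 RUNX words, that in Arid3a 1 ETS word and 1 bHLH word, and that in Prex1 3 ETS words and 2 bHLH words. The Atrnl1 window is a tandem array: 85.3% of its bases equalled the base 50 bp further on, and its 3 RUNX words are the same part of that unit. Of the 50 bp words of this window, 95.4% occurred more than once in the genome, whereas none of those of the other 9 highest members did.

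Windows with RUNX, ETS and bHLH words together were found for 51 members, and those with the highest scores lay in Gtf2i, the gene of the transcription factor TFII-I, and Xrcc6, which encodes Ku70 of DNA repair.
Gtf2i, chr5:134269875-134270074: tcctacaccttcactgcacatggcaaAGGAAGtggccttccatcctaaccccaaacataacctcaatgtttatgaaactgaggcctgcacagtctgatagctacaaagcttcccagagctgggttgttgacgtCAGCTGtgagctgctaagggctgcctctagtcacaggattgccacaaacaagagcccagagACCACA
Xrcc6, chr15:82027864-82028063: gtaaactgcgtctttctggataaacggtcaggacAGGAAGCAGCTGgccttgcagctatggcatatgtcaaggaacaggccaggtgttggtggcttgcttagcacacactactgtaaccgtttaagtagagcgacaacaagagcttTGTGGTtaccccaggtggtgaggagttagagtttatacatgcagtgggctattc
In Xrcc6 the ETS and bHLH words stood directly next to each other.

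The next windows are the highest-scoring ones in genes of fixed lists: Cbfa2t3, which encodes the corepressor ETO2 of LMO2 complexes, Lef1, a Wnt-pathway and T-lineage transcription factor, the cytokine receptor gene Flt3 and the lymphocyte kinase gene Stk10. Maml3, a coactivator gene of Notch signalling, had the highest score among genes with at least 3 members, and Gas7 held the member closest to the 2500 bp threshold.
Cbfa2t3, chr8:122665342-122665541: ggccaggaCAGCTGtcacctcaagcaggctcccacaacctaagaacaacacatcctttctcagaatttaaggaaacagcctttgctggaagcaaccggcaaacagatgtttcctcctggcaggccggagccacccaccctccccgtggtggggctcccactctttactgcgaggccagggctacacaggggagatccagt
Lef1, chr3:131208661-131208860: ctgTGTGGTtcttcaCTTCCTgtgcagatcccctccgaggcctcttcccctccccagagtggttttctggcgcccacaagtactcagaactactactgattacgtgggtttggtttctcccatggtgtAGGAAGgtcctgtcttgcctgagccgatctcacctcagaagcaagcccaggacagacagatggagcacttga
Flt3, chr5:147366461-147366660: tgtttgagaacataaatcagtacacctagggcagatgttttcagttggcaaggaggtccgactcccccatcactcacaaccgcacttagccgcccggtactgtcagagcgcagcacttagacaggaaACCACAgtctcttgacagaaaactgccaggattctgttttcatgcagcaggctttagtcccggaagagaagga
Stk10, chr11:32558786-32558985: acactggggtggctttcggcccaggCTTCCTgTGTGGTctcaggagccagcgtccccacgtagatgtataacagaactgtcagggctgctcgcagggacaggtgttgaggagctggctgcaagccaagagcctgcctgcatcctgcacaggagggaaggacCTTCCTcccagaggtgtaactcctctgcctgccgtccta
Maml3, chr3:52000156-52000355: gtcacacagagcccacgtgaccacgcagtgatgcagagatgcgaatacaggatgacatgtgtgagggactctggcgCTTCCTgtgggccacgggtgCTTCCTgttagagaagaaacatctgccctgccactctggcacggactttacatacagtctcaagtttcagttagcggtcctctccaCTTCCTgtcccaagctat
Gas7, chr11:67588937-67589136: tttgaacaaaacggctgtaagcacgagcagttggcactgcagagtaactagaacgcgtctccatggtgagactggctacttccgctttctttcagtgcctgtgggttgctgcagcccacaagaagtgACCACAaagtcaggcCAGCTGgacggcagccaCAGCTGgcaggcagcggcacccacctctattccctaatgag

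An E-box followed after 6 to 10 bases by GATA, on either strand, is the arrangement read by TAL1- and GATA-containing LMO2 complexes in erythroid cells. The 3 highest-scoring members with it are shown, and here capitals mark only the E-box and the GATA.
Ubash3a, chr17:31223997-31224196: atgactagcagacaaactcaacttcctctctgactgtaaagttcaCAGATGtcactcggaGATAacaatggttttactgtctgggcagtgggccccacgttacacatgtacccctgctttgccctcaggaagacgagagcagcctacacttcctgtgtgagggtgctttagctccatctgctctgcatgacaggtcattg
Trappc9, chr15:72928806-72929005: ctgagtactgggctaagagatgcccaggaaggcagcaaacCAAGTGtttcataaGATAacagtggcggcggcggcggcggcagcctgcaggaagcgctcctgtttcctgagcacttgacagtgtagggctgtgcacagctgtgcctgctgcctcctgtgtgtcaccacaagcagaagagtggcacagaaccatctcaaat
Cd34, chr1:194943587-194943786: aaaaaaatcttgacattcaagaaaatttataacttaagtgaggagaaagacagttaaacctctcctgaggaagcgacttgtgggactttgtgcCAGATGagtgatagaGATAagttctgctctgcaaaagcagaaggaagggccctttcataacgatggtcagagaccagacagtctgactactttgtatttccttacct
The E-box was CAGATG at 9 bases in Ubash3a and in Cd34, and CAAGTG at 8 bases in Trappc9. Ubash3a encodes a phosphatase that dampens T-cell receptor signalling, and Cd34 a surface protein of blood progenitors.

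Peak scores of the 486 members ranged from 15, the minimum of the list, to 162.4, with a median of 20.25 and quartiles of 17.05 and 28.8. A score of at least 30 was reached by 110 members (22.6%). Focus ratios ran from 0.615 to 0.919 with a median of 0.794. Members of higher score were also more focused: the median focus ratio was 0.816 in the 122 members with the highest scores and 0.779 in the 122 with the lowest. Both values come from the same reads, so this is a description of the list.

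The 10 highest scores lay in 10 genes, and the host gene was often not the gene whose TSS was nearest. Atrnl1, an attractin-like membrane protein gene, had 162.4 in intron 27 of 28, 383 kb from the start of the annotated transcript and with a microRNA gene, Mir5623, as the nearest TSS. Arid3a, a transcription factor gene of B-cell and stem cell biology, followed with 108.7 in intron 3 of 8. Prex1, which encodes an activator of the GTPase Rac, had 95.9 in intron 5 of 39. In Gtf2i a score of 90.2 was found in intron 10 of 32, where the listed nearest gene was Ncf1, a subunit gene of the phagocyte NADPH oxidase. These 4 peaks lay in 4 different later introns.

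Maml3 had 88.3 and Msrb3, a methionine sulfoxide reductase gene, 84.4, both in intron 1. Cables1, a gene of cell cycle and kinase signalling, had 80.2 in intron 6 of 8. Spag1, a gene of cilia assembly, had 76.9 in intron 12 of 18. Sipa1l1, which encodes a regulator of the GTPase Rap, had 75.8 in intron 1, and Stk10 had 75.2 in intron 2. Of the 10 highest members, 3 were thus in first introns. Neither the window in Msrb3 nor that in Sipa1l1 held any RUNX, ETS or bHLH word, where E-boxes other than CAGCTG do not count as bHLH words. High score therefore occurred with and without these words, and beyond Atrnl1 none of the 10 windows was of repeated sequence.

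Just above the distance threshold were peaks nearest to Gas7 (2537 bp, score 33.6), Tmem229b (2590 bp, 21.4) and Mir7023 (2627 bp, 19.9). Just below it were peaks nearest to Gria2 (2404 bp, 24.0), to a start without a gene name (2316 bp, 20.9) and to Cyth4 (2315 bp, 17.6).

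The members lay at varied depths in their genes, all of them more than 2500 bp from a TSS by the rule that chose them. A RefSeq host gene was found for 478 members, in 410 distinct genes, and the intron number in the list was the same in RefSeq for 472. The host was found by the listed transcript for 475 members. For the other 3 it was taken from another transcript with an intron at the same position. The median distance to the start of the annotated host transcript was 30.2 kb (quartiles 13.3 and 64.2 kb), with 94 members within 10 kb and 67 beyond 100 kb. The introns they lay in had a median length of 16.2 kb, and the median distance to the nearest splice site was 3.28 kb. Within 200 bp of a splice site lay 38 members. The share of intronic bases that close to a splice site was not counted, so these distances have no background beside them. The host gene and the listed nearest gene had the same symbol for 303 members (62.3%). For 133 the listed symbol was another one, and for 42 it was blank. Symbols can differ for the same gene: Fam19a4 was listed for the host Tafa4, with 44.2 kb to the start by either distance. A blank name can also stand at the host's own start, as for the higher member in Stk10, with 25.6 kb by either distance. The share counted by symbol is therefore a lower bound.

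First introns held 153 members, 31.5% (Wilson 95% interval 27.5 to 35.7). Intron 2 held 91, intron 3 held 48, introns 4 to 5 held 56, introns 6 to 10 held 72 and later ones 66. For comparison, first introns made up 22.6% of the intronic bases of RefSeq coding genes more than 2500 bp from a TSS, 194 Mb of 857 Mb. These bases, called eligible below, include annotated repeats, although a peak annotated to a repeat could not be a member. Numbered on the longest RefSeq transcript, on which this base share rests, 133 of 456 members (29.2%, 25.2 to 33.5) were in first introns. On that basis there were 0.685 members per Mb of first introns and 0.487 per Mb of later introns. These shares are descriptions, and no test was made of them. Among the 78 intronic peaks in repeats at the same distances, 33.3% (23.9 to 44.4) were in first introns.

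**Figure D1:**
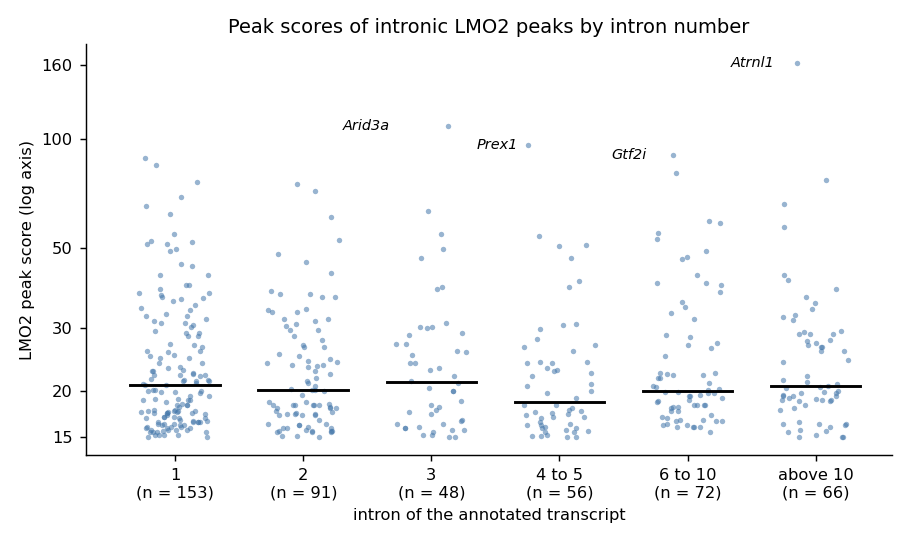
LMO2 peak score (log axis) of each of the 486 members against the number of the intron it lies in, as annotated in the list; points are peaks, spread sideways for visibility, and bars are medians. Medians lie between 18.75 and 21.25 in every bin, and the 4 highest peaks, named, lie in introns beyond the second.

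In first introns the score ran from 15 to 88.3 with a median of 20.9, and in later introns from 15 to 162.4 with a median of 20.2. The plot of scores by intron number shows wide and overlapping distributions in every bin. Members in first and later introns were compared by the share with each of 7 readouts: a score and a focus ratio at or above the list's median (20.3 and 0.788), and each of 5 motif words in the window. None of the 7 passed (Fisher's exact test, two-sided, with p-values adjusted by the Benjamini-Hochberg method over the 21 tests of 3 comparisons), and none had an unadjusted p under 0.05. A RUNX word was in 90 of 153 windows of first introns (58.8%) and in 194 of 333 of later introns (58.3%), a difference of 0.565 points with a Newcombe 95% interval from -8.90 to 9.78. For the score the difference was 0.477 points, with an interval from -9.00 to 9.94. The largest difference in size was that of GATA words, in 16.99% of first and 12.0% of later introns (4.98 points, -1.48 to 12.4, adjusted p = 0.463 by Fisher's exact test).

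RUNX, ETS and bHLH words were frequent in the members, and GATA and RBPJ words were not. RUNX words were in 284 of 486 windows (58.4%, 54.0 to 62.7), ETS words in 280 (57.6%, 53.2 to 61.9) and bHLH words in 179 (36.8%, 32.7 to 41.2). The same words were in 14.3%, 22.2% and 8.54% of 2974148 tiles of 200 bp from introns of coding genes, more than 2500 bp from a TSS and 1 kb from any listed peak. The members were richer in G and C than the tiles, with a median GC content of 53.0% against 42.5%. Tiles weighted to the GC content of the members held RUNX, ETS and bHLH words in 15.8%, 28.5% and 15.8%. Against those the shares in members were 3.69, 2.02 and 2.33 times as high. Windows 1 kb to either side of the members, 744 of them with an unmasked centre and with a median GC content of 48.5%, held the words in 13.6%, 25.9% and 14.4%. The higher shares of these words in members thus appeared against all 3 backgrounds.

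GATA words (AGATAA or TGATAA) were in 66 windows (13.6%, 10.8 to 16.9). Their direction depended on the background: the share was 0.576 times that of all tiles (23.6%) and 0.743 times that of windows 1 kb away (18.3%), but 1.25 times that of GC-weighted tiles (10.9%), a background share that fell just inside the interval of the members. RBPJ words (TGGGAA), which mark the DNA-binding partner of Notch, were in 65 windows (13.4%, 10.6 to 16.7). This was 0.749 times the share of all tiles, 0.621 times that of GC-weighted tiles and 0.777 times that of windows 1 kb away. The interval of the windows 1 kb away (17.2%, 14.7 to 20.1) overlapped that of the members.

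**Figure D2:**
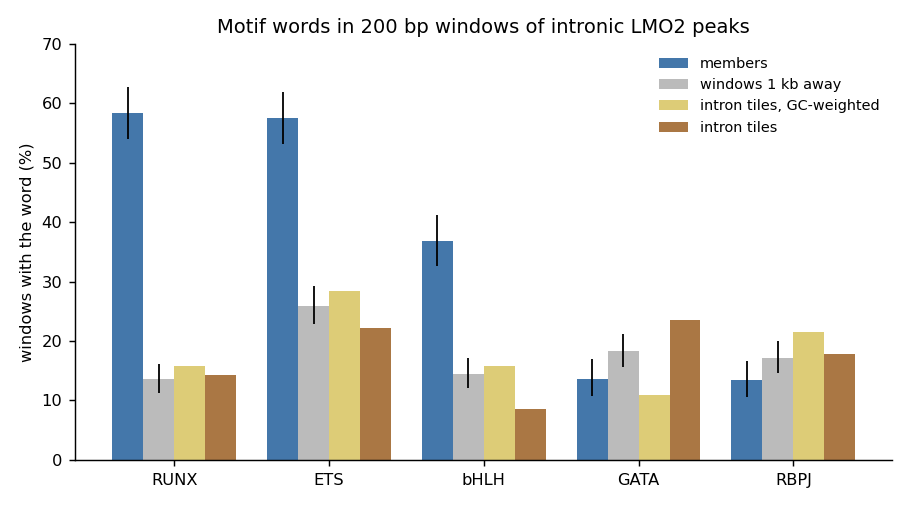
Share of 200 bp windows (%) with each motif word in the 486 members, in windows 1 kb to either side, in GC-weighted intron tiles and in all intron tiles; error bars are Wilson 95% intervals, which are not drawn for the tiles. RUNX, ETS and bHLH words stand above all 3 backgrounds, RBPJ words below them, and GATA words lie below 2 of the 3. For RBPJ and GATA words the intervals of members and of windows 1 kb away overlap.

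The words gathered around the centres of the peaks, over a broad zone. RUNX words had 112 of their 409 matches within 25 bp of the centre, 136 from 25 to 50 bp, 104 from 50 to 75 bp and 57 further out. The mean over windows 1 kb away was 20.6 matches per zone of this size. ETS words had 109, 103, 97 and 73 in the same zones, with a mean of 37.1 in the windows 1 kb away. For bHLH words the numbers were 69, 55, 54 and 34, with 16.9 away from the peaks. GATA words, few as they were, had 24, 20, 17 and 8, against 25.25 in the windows 1 kb away. The windows 1 kb away with an unmasked centre held GATA words more often than GC-weighted tiles (18.3% against 10.9%). No positions were counted for the tiles. RBPJ words showed no such shape, with 15, 17, 18 and 17. The outermost zone has slightly fewer possible positions, since a word must lie whole inside the window.

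**Figure D3:**
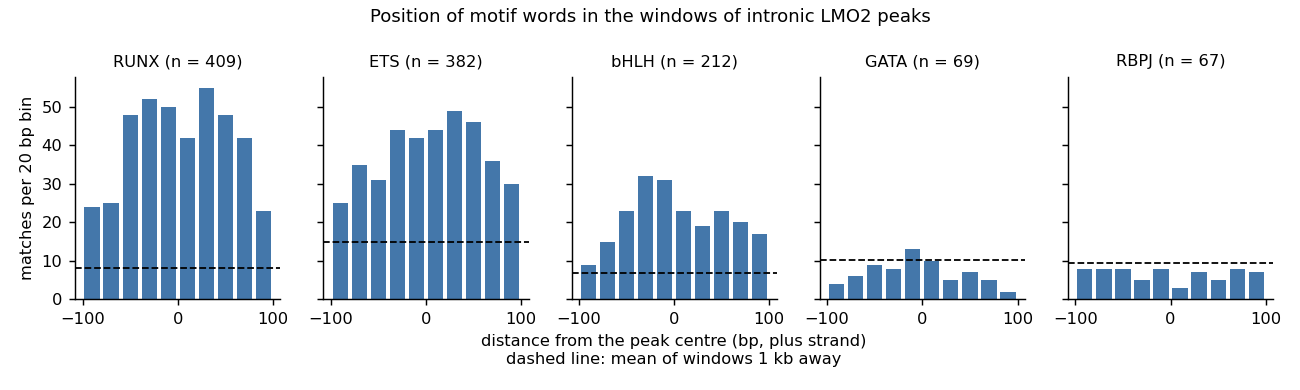
Number of matches of each motif word per 20 bp bin against the distance of the word's middle from the peak centre (bp), over both strands of the 486 member windows; the dashed line is the mean per bin in the windows 1 kb away. RUNX, ETS and bHLH matches exceed the line in every bin and are fewer at the edges, and RBPJ matches are flat.

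Single words were often repeated or combined. A RUNX word occurred once in 183 windows, and 81 windows had 2, 16 had 3 and 4 had 4. Of the members, 50 (10.3%) held none of the RUNX, ETS and bHLH words, 180 held 1 kind, 205 held 2 kinds and 51 (10.49%) all 3. The bHLH word in these counts is CAGCTG alone, so windows without it can hold other E-boxes. With CAGGTG and CACCTG added, a bHLH word was in 55.3% of members and in 55.6% of distal intergenic peaks. RUNX with ETS but no bHLH was the most frequent combination, in 105 members (21.6%). Median scores followed no order with the number of kinds, at 21.25, 19.8, 20.7 and 21.5 for 0, 1, 2 and 3 kinds. In 4 groups of members of about equal size, from the highest to the lowest scores, RUNX words were in 59.8%, 60.3%, 58.7% and 54.9% of windows. For bHLH words the shares in the same order were 41.0%, 38.0%, 32.2% and 36.1%. These are descriptions of 1 list, without a test.

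Among the E-boxes, 3 of the 10 possible words were common in the members. CAGATG, or CATCTG on the other strand, was in 191 windows (39.3%, 35.1 to 43.7), against 16.4% of the windows 1 kb away. CAGCTG was in 36.8% against 14.4%, and CAGGTG with CACCTG in 28.6% (24.8 to 32.8) against 14.4%. Next came CATGTG with CACATG, in 19.1% against 15.1%. CATTTG with CAAATG was in 8.85% of members and 12.1% of windows 1 kb away. These words were counted after the bHLH counts had been seen.

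The E-box followed by GATA after 6 to 10 bases was in 19 members (3.91%, 2.52 to 6.02), against 3.01% of all tiles, 1.98% of GC-weighted tiles and 1.75% (1.02 to 2.97) of windows 1 kb away. Scores of these members ranged from 15.2 to 49.0. The highest were those in Ubash3a (49.0), Trappc9 (38.4) and Cd34 (37.5), and Runx2, the RUNX factor gene best known from bone, had one with 18.7 in intron 2. The E-box was CAGATG or its complement CATCTG in 10 of the 19, and CAGCTG in 4.

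Distal intergenic peaks outside repeats, 586 peaks more than 2500 bp from a TSS, were compared with the members on the same 7 readouts. None of the 7 passed, and 2 had an unadjusted p under 0.05. A focus ratio at or above the list's median was found in 273 of 486 members (56.2%) and 290 of 586 intergenic peaks (49.5%), a difference of 6.68 points (0.681 to 12.6, adjusted p = 0.128 by Fisher's exact test). ETS words were in 57.6% and 51.2%, a difference of 6.42 points (0.428 to 12.3, adjusted p = 0.128 by Fisher's exact test). For RUNX words the difference was 3.15 points (-2.81 to 9.05) and for the score -2.56 points (-8.54 to 3.44). The medians of the score were 20.25 and 20.9, and 22.6% of members and 22.9% of intergenic peaks reached a score of 30.

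Peaks near a TSS, 222 peaks within 2500 bp and outside repeats, differed in 3 readouts. RUNX words were in 58.4% of members but in 77 of 222 peaks near a TSS (34.7%), a difference of 23.8 points (15.9 to 31.1, adjusted p = 4.77e-08 by Fisher's exact test). A focus ratio at or above the list's median was found in 56.2% and 32.4%, which is 23.7 points more in the members (15.9 to 31.0, adjusted p = 4.77e-08 by Fisher's exact test). ETS words were in 57.6% and 39.6%, a difference of 17.97 points (10.1 to 25.5, adjusted p = 7.85e-05 by Fisher's exact test). bHLH words did not pass, with 36.8% and 33.3% (3.50 points, -4.17 to 10.8, adjusted p = 0.687 by Fisher's exact test). The score did not pass either at the list's median, with 50.0% and 40.5% at or above it (9.46 points, adjusted p = 0.121 by Fisher's exact test), whereas a cut at 30 gave 22.6% and 13.1% (9.57 points, adjusted p = 0.0158 by Fisher's exact test).

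GC content and repeated sequence moved with these classes. Median GC content was 53.0% in members and 59.5% near a TSS, and windows of which at least 50% of the 50 bp words occurred more than once made up 3.09% and 20.3%. Among windows of 45 to 60% GC, a range chosen after the data were seen, 414 members and 106 peaks near a TSS remained and none of the 3 readouts passed. There the difference was 13.9 points for RUNX words (3.37 to 24.2, adjusted p = 0.153), 12.7 points for the focus ratio (2.02 to 22.9, adjusted p = 0.153) and 3.23 points for ETS words (-7.14 to 13.8, adjusted p = 0.917), all by Fisher's exact test. Without windows of repeated words the RUNX and focus ratio differences were 18.1 and 17.6 points, both with an adjusted p = 0.000733, and ETS words no longer passed (10.5 points, adjusted p = 0.111), again by Fisher's exact test.

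**Figure D4:**
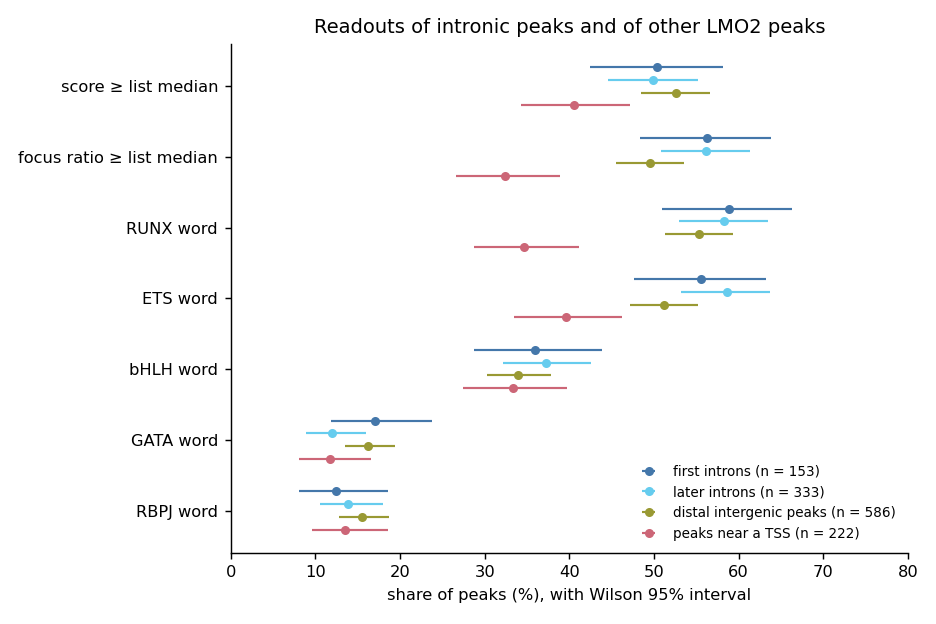
Share of peaks (%) with each of 7 readouts in first introns, later introns, distal intergenic peaks and peaks near a TSS; points are shares and bars Wilson 95% intervals. The intervals of both intron groups and of the intergenic peaks overlap in every readout, and peaks near a TSS lie lower for the focus ratio and for RUNX and ETS words.

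Repeated sequence was rare among the members. Of 486, 15 had a window in which at least 50% of the 50 bp words occurred more than once, beside 50 of 586 distal intergenic peaks (8.53%). They included the highest member, in Atrnl1, and the members in Gpr137b and its pseudogene Gpr137b-ps, which had the same score of 51.3 and windows in which every 50 bp word occurred more than once. Others were near Raet1c (54.9 and 20.7) and near the immunoglobulin-like receptor genes Pira2 (20.6 and 15.2) and Pirb (19.4). The authors kept reads that matched up to 10 places, so these peaks may share reads. For 8 members, 6 of them in this group of 15, no host gene was found in the reference annotation.

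The members were spread unevenly over the chromosomes. The eligible bases used here are those of coding genes and include repeats, whereas all 486 members were counted, also those without a coding host gene. Differences in repeat content between chromosomes were not taken into account. Chromosome 11 held 50 members (1.14 per Mb of eligible introns), chromosome 7 held 39 (0.861 per Mb) and chromosome 14 held 11 (0.282 per Mb). Chromosome X held 1 member, 0.206% of them, in 37.6 Mb or 4.39% of the eligible intronic bases, and chromosome Y held none in 0.697 Mb.

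Members shared host genes: 351 genes held 1 member, 51 held 2, 7 held 3 and 1 held 4. Neighbouring members of a gene were a median of 15.1 kb apart, with a range from 0.48 to 284 kb. Ptpre, a receptor-type protein tyrosine phosphatase gene, held 4 members with scores of 18.3, 17.3, 15.8 and 15 in introns 1, 1, 3 and 4 of its annotated transcripts. All 4 windows held an ETS word, which was in 57.6% of all members. In Maml3, 3 members had scores of 88.3 in intron 1 and 17.7 and 17.2 in intron 2, with 218 kb between the highest and its neighbour. In Snap47, a gene of vesicle fusion, the scores were 46.7, 38.4 and 15.9. Each was annotated to intron 3, but that of 38.4 on a transcript with 3 introns and the others on one with 4, so this is not the same intron.

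Rfx4, a transcription factor gene best known from brain, held members of 36.5, 30.7 and 15.1. Slc12a3, a salt cotransporter gene of the kidney, held members of 33.8, 16.3 and 15.4 in introns 21, 24 and 18. In Smad3, which encodes a transducer of TGF-β signals, 3 members in intron 1 had scores of 29.1, 21.7 and 17.7, spaced by 10.4 and 10.9 kb. Cuedc1, a gene for a ubiquitin-binding protein, held 3 in intron 1 (20.9, 17.4 and 15.2), and each of these windows had a RUNX word. Pik3ap1, which encodes the PI3-kinase adaptor BCAP of B cells, held members of 19.2, 15.1 and 15, and each had an ETS word. Over all members, RUNX words were in 58.4% and ETS words in 57.6%, and whether words recur within a gene was not tested.

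Genes of blood cell regulation were looked at through 7 lists. Over all 17042 RefSeq coding genes with intronic bases more than 2500 bp from a TSS, 390 (2.29%) hosted a member. These hosts had long introns, a median of 70.1 kb of eligible sequence against 17.6 kb over all genes, so counts are also given per Mb. Eligible sequence again includes repeats. Over all genes there were 0.529 members per Mb. The lists were drawn up with earlier results of these data known, so their counts are descriptions.

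Of 54 genes of hematopoietic transcription factors with eligible introns, 11 (20.4%) hosted 13 members, 2.14 per Mb, with a median score of 19.4. Lef1 had 32.5 in intron 11 of 11. The RUNX family, which controls blood stem cells and lymphocyte development, was hit in all its genes: Runx3 had 32.4 in intron 1, Runx1 had 30.7 and 24.6 in intron 2, and Runx2 had 18.7. Both windows in Runx1 held a GATA word and no RUNX word, and that in Runx3 held 2 RUNX words. The ETS family genes Erg (23.9), Elf1 (19.1) and Fli1 (15.4 and 15.4) were hit as well, with the members in Elf1 and Fli1 in first introns. Further members were found in Tcf4 (19.8), an E protein gene, in Klf13 (15.6) and in Tox (15.4). Ebf1, whose product these cells lack, had a member of 19.4 in intron 7 of 15, 263 kb from its start.

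Of 17 genes of LMO2 complexes, 3 (17.6%) hosted 4 members, 2.43 per Mb. Cbfa2t3 held 54.5 and 25.7, both in intron 1 and with the bHLH word in either window. Ssbp2, which encodes a single-stranded DNA-binding protein that protects LDB1, had 27.0 in intron 3, and the fourth was the member in Tcf4.

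Of 31 genes of cytokine, growth factor and Notch receptors, 5 (16.1%) hosted 8 members, 7.08 per Mb, with a median score of 28.4. Cd34 and Ptprc were counted in this list as surface proteins, although they are not receptors of these kinds, and they held 3 of the 8 members. Flt3, the receptor of one of the cytokines in the culture, held 41.9 in intron 9 and 27.7 in intron 20. Cd34 had 37.5 in intron 1, and the interleukin-17 receptor gene Il17ra had 31.4 in intron 1 and 29.1 in intron 3. Ptprc, which encodes the blood cell surface phosphatase CD45, held 18.7 and 15.8 in intron 2. Notch1, the receptor that starts T-lineage development, had 17.7 in intron 4.

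Of 48 genes of kinases, GTPases and their regulators, 10 (20.8%) hosted 13 members, 2.01 per Mb. Stk10 held 75.2 and 30.3 in intron 2, and Prkca, a protein kinase C gene, held 60.8 and 17.6 in intron 2. Others were in Inpp5d (31.4 and 27.7), Vav1 (25.3), Ptk2b (22.4), Pik3cd (19.9), Plcg2 (19.6), Blk (18.7) and Prkch (15).

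Of 36 chromatin regulator genes, 6 (16.7%) hosted 7 members, 1.67 per Mb. None of these few members was in a first intron, where 31.5% of all members lay. The highest scores were those of the chromatin remodeller gene Chd7 (33.2), of the SWI/SNF ATPase gene Smarca2 (22.8) and of the DNA methyltransferase gene Dnmt3a (21.1). Of 21 T-lineage genes, 2 (9.52%) hosted a member: Lef1, already named, and Cd247, the T-cell receptor zeta chain gene, with 27.0 in intron 1. None of 15 B-lineage genes hosted one, over only 0.436 Mb of eligible introns, in which the density over all genes would place less than 1 member. This list left out Ebf1 and Blk, which also act in B-lineage cells and which hosted members counted in other lists above.

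**Figure D5:**
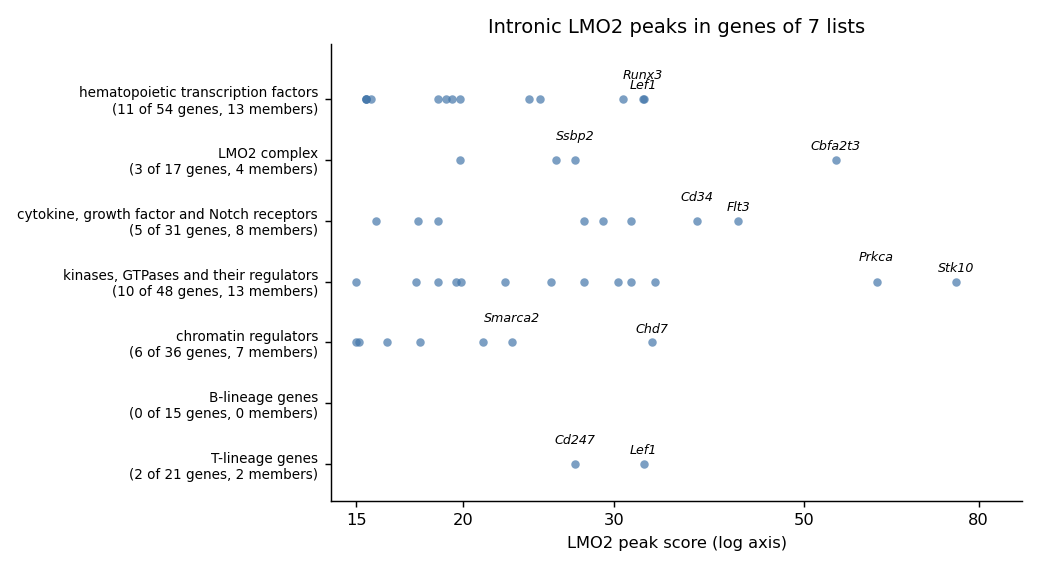
LMO2 peak score (log axis) of each member that lies in an intron of a gene of 7 lists; points are peaks, the 2 highest of each list are named, and the labels give the genes hosting a member and the members. Scores lie mostly below 35, with Stk10, Prkca, Cbfa2t3, Flt3 and Cd34 above, and the list of B-lineage genes, which does not include Ebf1 and Blk, is empty.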

How the data were processed

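The authors aligned reads of the LMO2 ChIP and input samples with Bowtie 1.1.1 (per the submitters' processing notes), allowing reads that matched up to 10 places, to a build named NCBI37/mm10, taken here as GRCm38. They called peaks with HOMER against input, kept peaks reproducible between replicates by IDR with a normalized score of at least 15, and annotated them. The deposited score and the deposited focus ratio, a fraction, are the authors' values, 1 per peak for both replicates. How the score was scaled and how multiply matched reads were counted are not given in the sources used here. The methods and the labels name different read lengths and sequencers. Depth is unknown from the list.

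Members were taken by the annotation, distance and repeat columns. Host genes came from the RefSeq annotation of GRCm38.p6. Windows of 200 bp were searched on both strands. Tiles were cut from introns of the longest coding transcript of each gene, with an unmasked centre. Shares carry Wilson 95% intervals and differences Newcombe intervals. Groups of peaks were compared with two-sided Fisher's exact test, adjusted over 21 tests. Peaks are not replicates of a condition, so the tests compare peaks of this list only. The search and test were tested on simulated data. The members, lists and named genes were chosen with earlier results of these data known. The named genes, of which some items are not reported here, are the 10 highest scores, genes with at least 3 members, the highest scores of each list, members next to the threshold and members with combined motifs. E-box words, GC-limited windows and repeated windows were examined after the data were seen. Other alternatives were a score of at least 30, 1 peak per gene, masked windows left out, 100 bp windows, wider motifs and other distances. Tests ran in SciPy 1.17.1 and sequence counts in pysam 0.24.0 and numba 0.67.0, under Python 3.11.15 with pandas 2.3.3 and NumPy 2.4.6.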

Additional observations from a re-analysis of the deposited data

How the results depend on the processing

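No paired analysis was possible because each peak has a single value for both ChIP samples, and leaving out a replicate could not be run for the same reason. The first-intron share stayed inside its interval under each alternative (29.2 to 35.5%). A score of at least 30 left 110 members, and the other definitions of the class gave 436 to 564. Members against peaks near a TSS had 0 readouts past the threshold within 45 to 60% GC, where both groups are smaller. Over single readouts, 120 alternatives kept the side of the threshold, 4 lost a call and 1 gained it, all 5 against peaks near a TSS. The ratio of motif shares to background moved from 4.10 to 3.69 with GC-weighted tiles for RUNX. For ETS it moved from 2.59 to 2.02 with GC-weighted tiles and 2.22 with windows 1 kb away, and for bHLH from 4.31 to 2.33 and 2.56. For GATA the ratio of 0.576 turned to 1.25 with GC-weighted tiles and was 0.743 with windows 1 kb away. The members are richer in G and C than the tiles, and the windows 1 kb away were not weighted by GC content.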
